A study of Mus musculus with 9 samples.

Results

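The same mRNAs were measured in 3 mouse striatal cell lines, and the 2 lines that carry an expanded huntingtin allele were compared together with the line that does not. Control cells (STHdhQ7/Q7) carry 7 repeats in exon 1 of huntingtin (Htt) on both alleles. HD-het cells (STHdhQ7/Q111) carry 7 repeats on 1 allele and 111 on the other, and HD-homo cells (STHdhQ111/Q111) carry 111 on both. All are immortalized cells from the striatum of mouse embryos on a C57/BL6 background, kept in culture and not treated. Each line gave 3 poly(A)-selected RNA-seq libraries, so that 9 libraries of 9 in the series were used. Since each genotype is 1 line, the genotype and the history of a line cannot be told apart, and since no label says that the libraries of a line come from separate cultures, p-values measure only the spread between these libraries. The mean of the HD lines, each at a weight of 0.5, was set against control cells for 13508 tested genes of 36410 listed. A gene was counted as a shared shift where this averaged contrast passed an adjusted p of 0.05 and all 6 HD libraries lay above, or all below, the range of the 3 control libraries. The shared shift held 4165 genes, 2181 higher and 1984 lower in the HD lines.

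Huntington disease (HD) is caused by expansion of a CAG repeat in the first exon of Htt, which lengthens a run of glutamines near the start of the huntingtin protein. Huntingtin is a large scaffold protein found in most cells, and the expanded form is best known for its effect on striatal neurons, where genes of neuronal function, chaperones, cholesterol synthesis, stress and inflammation are known to change. Striatal knock-in lines of this kind are proliferating progenitor-like cells that carry the repeat at the natural Htt locus. In the mouse reference (GRCm38, GENCODE transcript Htt-201), Htt is a plus-strand gene on chromosome 5, from 34761740 to 34912534, and 7 glutamine codons in a row, codons 18 to 24 of 3120, lie in exon 1 of 67. The stretch is shown because it is the site that differs between the lines by design, with the glutamine codons in capitals. The alleles of the lines themselves were not read here.
Htt exon 1 (chr5:34761955-34761984, + strand): tttCAGCAGCAACAGCAGCAGCAGccaccg

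Gene counts summed to between 29507665 and 41197931 reads in a library. In this range, a count of 3, taken as the smallest that shows a gene, was worth between 0.0710 and 0.101 CPM, the unit of all levels below (counts scaled to a common library size with TMM factors). This floor covers counting error only. Replicate libraries of a line differed by 2.23 to 40.3 times the variance of counting alone, most between HD-homo replicates 2 and 3. Defining genes of mature striatal neurons were close to absent, with no count of Drd1 in any library, at most 1 of Drd2 and at most 17 of Ppp1r1b. The neural progenitor genes Nes and Sox2 and the striatal factors Foxp1 and Meis2 had between 167 and 30378 counts in every library. The striatal factor Bcl11b had only 2 to 26 counts, at most 0.779 CPM. Of 36 listed genes of striatal neuron identity, 25 were under 1 CPM in all libraries. Of 16 markers of microglia and macrophages, 13 were under 1 CPM in all libraries, Aif1 and Tyrobp had no count, and the summed level was 14.3 to 18.1 CPM in control, 46.0 to 58.0 in HD-het and 15.8 to 17.1 in HD-homo libraries, most of it Tmem119. In pooled cells of a line, fewer cells of a kind and less RNA per cell cannot be told apart.

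Htt itself was lower in both HD lines. Htt measured 104, 103 and 93 CPM across control replicates, 61.8, 64 and 61.1 across HD-het replicates, and 19.7, 21.7 and 19.2 across HD-homo replicates. No HD library reached the control range, and the HD-homo libraries lay under the HD-het libraries. Averaged over the lines, the log2 fold change was -1.49 (SE 0.055), with an adjusted p of 2.8e-09 from the quasi-likelihood test of edgeR, adjusted over all tested genes after Benjamini and Hochberg. The HD-het level was 1.6-fold and the HD-homo level 4.95-fold lower than control, and HD-homo minus HD-het was -1.62 (SE 0.0686, edgeR adjusted p = 3.8e-09). With both HD lines treated as 1 group of 6 libraries, where the gap between the lines enters the spread, the value was -1.28 with an adjusted p of 0.084 in edgeR. The repeat expansion adds codons and does not remove the gene, so this level does not check the labels.

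The averaged contrast called 7986 genes, or 59.1% of those tested, 3854 higher (28.5%) and 4132 lower (30.6%). Of these, 4165 were shared shifts, which is 30.8% of the tested genes. The rest of the called genes had at least 1 HD library within the control range (2933 genes) or the HD lines on opposite sides of it (888 genes). A further 75 genes had all HD libraries outside the control range without passing the test. With both HD lines as 1 group of 6 libraries, 2398 genes were called and 2385 were shared shifts, so that the counts depend on whether the distance between the HD lines is taken as error. Requiring a log2 fold change of at least 1 as well left 2020 called genes and 1320 shared shifts.

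**Figure D1:**
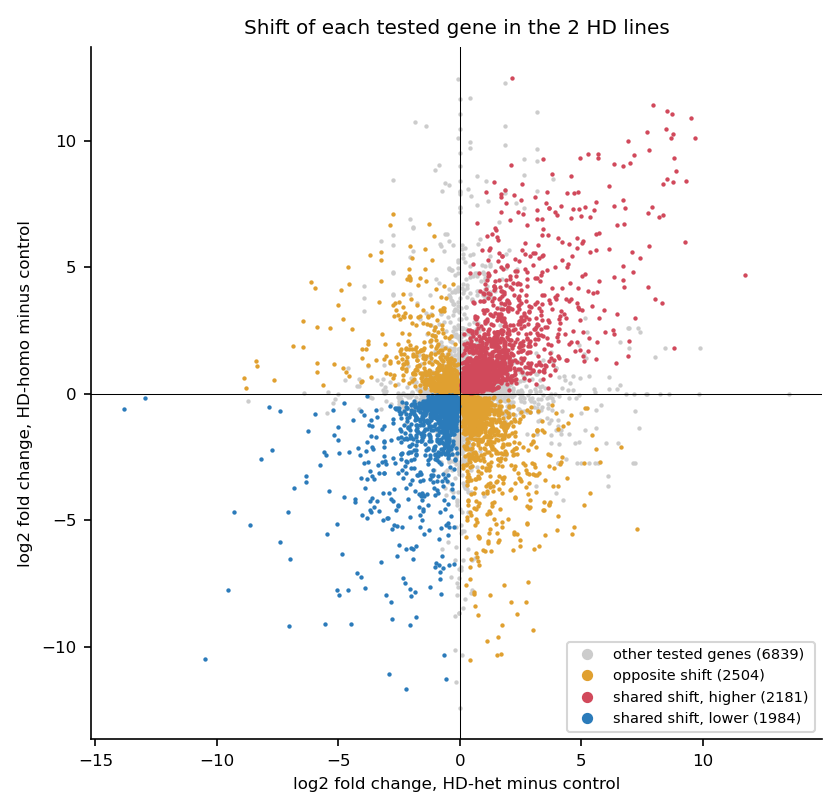
Each point is 1 of the 13508 tested genes, placed by its log2 fold change against control cells in HD-het cells (horizontal axis) and in HD-homo cells (vertical axis). The 2181 shared higher genes fill the upper right, the 1984 shared lower genes the lower left, and the 2504 genes with the lines on opposite sides of the control range the remaining corners.

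Most shared shifts were small. The size of the averaged log2 fold change is given as a description, since the same contrast chose the genes. It had a median of 0.73 (quartiles 0.39 and 1.63) for higher genes and 0.51 (quartiles 0.33 and 0.94) for lower genes. For each gene the smaller of the 2 lines' log2 fold changes, in size, was also taken. This smaller shift reached 1 in 633 higher genes (4.69% of the tested genes) and 268 lower genes (1.98%). It reached 5 in 51 higher and 10 lower genes. In 124 of the higher genes every control library had 3 counts or fewer. The HD lines were then compared with each other without the control libraries. The rule bears on this comparison, since it leaves out genes with the HD lines on opposite sides of the control range. The shares of shared genes below are therefore not set against the share of all tested genes as a result. HD-homo and HD-het cells differed at 9666 of all tested genes (71.6%), and at 59.2% of the shared higher and 62.2% of the shared lower genes. Of the shared higher genes, 633 were further from control in HD-homo, 659 further in HD-het, and 889 did not differ between the lines by the test. For the shared lower genes these numbers were 542, 692 and 750.

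The 12 leading higher genes had at most 6.1 CPM in a control library. Aebp1, a secreted matrix protein that binds collagen, and Bgn, the small proteoglycan biglycan, reached the highest levels. Aebp1 measured 0.715, 0.565 and 0.338 CPM across control replicates, 189, 175 and 226 across HD-het replicates, and 755, 654 and 904 across HD-homo replicates. Bgn had 6.1, 5.92 and 4.16 CPM across control replicates, 1314, 1265 and 1378 across HD-het replicates, and 1042, 757 and 897 across HD-homo replicates. Neither gene had an HD library near the control range, with Aebp1 364-fold higher in HD-het and 1429.5-fold higher in HD-homo cells, and Bgn 245-fold and 167-fold higher. The lines ordered differently for these genes, since HD-homo minus HD-het was 1.97 (SE 0.13, edgeR adjusted p = 1.3e-07) for Aebp1 and -0.55 (SE 0.12, edgeR adjusted p = 0.0015) for Bgn. Ltbr, the lymphotoxin beta receptor, and Mpg, the glycosylase that starts repair of alkylated bases, were under the floor in every control library. Ltbr measured 0.0622, 0.0595 and 0 CPM across control replicates, 19.3, 18.8 and 20.2 across HD-het replicates, and 96.6, 89 and 99.8 across HD-homo replicates. Against the floor of 3 counts per control library, Ltbr was in HD-het cells at least 192-fold and in HD-homo cells at least 938-fold higher, and Mpg at least 100.3-fold and at least 268-fold. Mme encodes neprilysin, a cell-surface peptidase that cleaves small peptides. Mme measured 1.4, 1.46 and 0.98 CPM across control replicates, 65.4, 76.8 and 48.8 across HD-het replicates, and 197, 311 and 233 across HD-homo replicates. All 6 HD libraries of Mme were far above control, and the HD-homo libraries were above the HD-het libraries.

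For Bhlhb9, Tep1 and Galnt13 no difference between the HD lines passed the test. Bhlhb9 measured 0.0311, 0.0595 and 0.135 CPM across control replicates, 28.2, 29.3 and 29.1 across HD-het replicates, and 27.3, 26.5 and 28.5 across HD-homo replicates. The control values of Bhlhb9 rest on 1, 2 and 4 counts, and the HD lines differed by -0.07 (SE 0.0817, edgeR adjusted p = 0.45). Tep1, a protein of the telomerase and vault particles, was 48.5-fold higher in HD-het and 51.8-fold higher in HD-homo cells, from 0.56, 0.684 and 0.676 CPM in the control libraries. Galnt13, which starts mucin-type O-glycosylation, was 42.6-fold and 49.6-fold higher. HD-homo minus HD-het was 0.10 (SE 0.0895, edgeR adjusted p = 0.35) for Tep1 and 0.22 (SE 0.179, edgeR adjusted p = 0.29) for Galnt13. For Cmtm7, a MARVEL-domain membrane protein, the level was 112-fold and 542-fold higher, over control libraries of 6, 2 and 1 counts. Medag, named for its role in fat cell formation, had log2 fold changes of 4.87 in HD-het and 7.95 in HD-homo cells, and HD-homo exceeded HD-het by 3.07 (SE 0.157, edgeR adjusted p = 1.7e-08). Ifi27, an interferon-inducible gene, and Mfsd10, a transporter-like membrane protein within 500 kb of Htt, are described with their groups below.

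The genes that fell most in both lines included neuronal genes and developmental transcription factors. Stmn2, stathmin 2, which regulates microtubules in growing axons, fell in both lines. Stmn2 measured 57.6, 57.5 and 46.1 CPM across control replicates, 2.99, 2.5 and 2.64 across HD-het replicates, and 3.04, 3.13 and 2.09 across HD-homo replicates. The groups did not overlap, the fold was 19.8 lower in HD-het and 19.5 lower in HD-homo cells, and the HD lines differed by 0.03 (SE 0.172, edgeR adjusted p = 0.89). Elavl2, a neuronal RNA-binding protein, and Ptprb, a receptor tyrosine phosphatase, fell further in HD-homo cells. Elavl2 had 17.6, 20.1 and 18.7 CPM across control replicates, 0.649, 0.854 and 0.839 across HD-het replicates, and 0, 0.118 and 0.119 across HD-homo replicates. HD-homo minus HD-het was -3.17 (SE 0.418, edgeR adjusted p = 3.6e-05) for Elavl2 and -3.55 (SE 0.474, edgeR adjusted p = 4e-05) for Ptprb. Pax2, a paired box transcription factor of early development, showed the other order. Pax2 measured 34.3, 32.9 and 31.6 CPM across control replicates, 0.0282, 0.061 and 0.0599 across HD-het replicates, and 1.07, 0.971 and 1.94 across HD-homo replicates. The HD-het libraries of Pax2 held 1 or 2 counts, so its fold is at least 360.4 lower in HD-het cells, against 24.8 lower in HD-homo cells.

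Cdx2, a caudal-type homeobox factor, was 22.7-fold lower in HD-het and at least 239-fold lower in HD-homo cells, from 21.1, 20.8 and 23.9 CPM in the control libraries. Gpr149, an orphan receptor, was at 19.3, 19.2 and 31.8 CPM in control cells and had at most 9 counts in an HD-het library and 4 in an HD-homo library. Cd200, a surface protein that restrains myeloid cells, was 32.1-fold lower in HD-het cells and had at most 4 counts in an HD-homo library. Mid1, a microtubule-associated ubiquitin ligase, was the most abundant of the leading lower genes. Mid1 measured 277, 263 and 222 CPM across control replicates, 21.7, 22.2 and 22.4 across HD-het replicates, and 10.8, 12.1 and 11.6 across HD-homo replicates. Its HD libraries lay close together within each line, with HD-homo minus HD-het at -0.93 (SE 0.0891, edgeR adjusted p = 2.7e-06). The secreted ligands Wnt7a and Artn, the latter a member of the GDNF family, fell, to 14.8-fold and 13.2-fold lower levels in HD-het cells and 13.4-fold and 25.3-fold lower levels in HD-homo cells. Ston2, an adaptor of synaptic vesicle endocytosis, had log2 fold changes of -3.64 in HD-het and -4.67 in HD-homo cells, and Dynap, a dynactin-associated protein, -3.81 in HD-het and -4.92 in HD-homo cells.

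**Figure D2:**
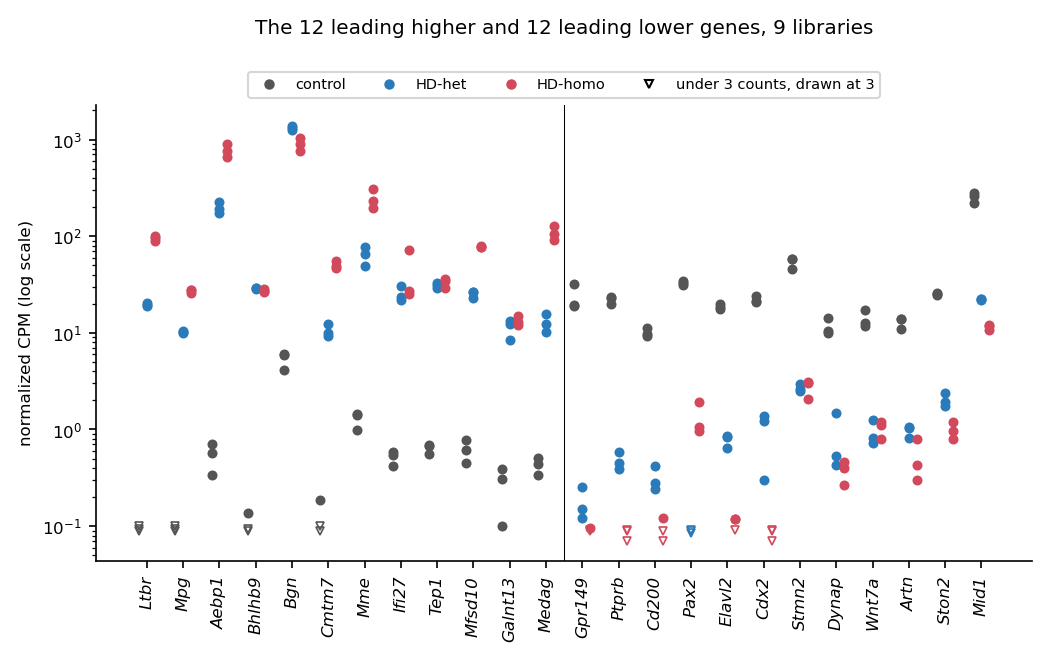
Normalized CPM on a log axis for the 12 leading higher genes (left of the line) and the 12 leading lower genes (right), with 1 point for each of the 9 libraries and open triangles for libraries under 3 counts, drawn at 3 counts. Control points lie under all HD points on the left and above them on the right, and Bhlhb9, Tep1, Galnt13, Stmn2 and Wnt7a are genes whose HD-het and HD-homo points overlap.

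Genes of cholesterol synthesis fell together. Cells make cholesterol from acetyl-CoA through mevalonate, squalene and lanosterol, and the factor encoded by Srebf2 switches these genes on when sterols are low. Of 25 tested members, 22 were called lower and 0 higher in the averaged contrast (30.6% and 28.5% of all tested genes). The shared shift held 14 members lower, 56% against 14.7% of all tested genes, and 0 higher. The median averaged log2 fold change of the list was -0.72, beside -0.0034 over all tested genes. The lower members included Acat2, Cyp51, Fdft1, Fdps, Hsd17b7, Idi1, Msmo1, Mvk, Nsdhl, Sc5d, Sqle, Srebf2 and Stard4, which cover steps from acetyl-CoA onward, with Srebf2 and the sterol carrier Stard4. Stard4 had 115, 118 and 113 CPM across control replicates, 52.2, 57.2 and 46.5 across HD-het replicates, and 63.2, 76.8 and 43.8 across HD-homo replicates. Both HD lines were lower at Stard4, 2.22-fold and 1.88-fold, and differed by 0.24 (SE 0.158, edgeR adjusted p = 0.19).

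The fall was deeper in HD-het cells at 10 of the 14 members by the test between the HD lines, and deeper in HD-homo cells at 0. With both HD lines as 1 group of 6 libraries, 8 members were shared lower. Idi1, the isomerase of isopentenyl diphosphate, had log2 fold changes of -2.59 and -0.57 in HD-het and HD-homo cells. Sqle, the squalene epoxidase, had -1.90 and -0.29, and Srebf2 itself -1.65 and -0.41. Fdps, which makes farnesyl diphosphate, had -1.06 and -0.91. Hmgcs1, which opens the mevalonate route, was not a shared shift, since after scaling to library size 2 HD-homo libraries lay above the control range and 1 below it. Hmgcs1 had 5693, 5582 and 5907 counts across control replicates, 2891, 2938 and 2670 across HD-het replicates, and 6989, 11503 and 4991 across HD-homo replicates.

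Many chaperones fell as well. Heat shock proteins fold new and damaged proteins, and they are known to act on polyglutamine proteins. Of 33 tested members, 23 were called lower and 4 higher in the average, and 14 were shared lower (42.4%) and 2 shared higher (6.06%), with a median log2 fold change of -0.27. The lower members were Cct2, Chordc1, Cryab, Hsp90ab1, Hspa1a, Hspa1b, Hspa4, Hspa8, Hspb8, Hspd1, Hspe1, Hsph1, Stip1 and Tcp1, from the HSP70, HSP90, HSP60, chaperonin and small heat shock families. Cryab measured 62.4, 59.1 and 71.4 CPM across control replicates, 31.1, 28.8 and 23.1 across HD-het replicates, and 15.1, 20.3 and 25.5 across HD-homo replicates. Cryab, alpha-B crystallin, is a small heat shock protein, and every HD library had a lower level than every control library. Hspa1a measured 38.3, 39 and 41.1 CPM across control replicates, 14.9, 14.3 and 14.9 across HD-het replicates, and 27.7, 28.2 and 24.3 across HD-homo replicates. Hspa1a and its near-identical neighbour Hspa1b share most of their sequence, so the counts of each are uncertain, and Hspa1b had log2 fold changes of -1.59 and -0.55. Hsp90ab1, the constitutive HSP90, was among the most abundant, with 100503, 103757 and 100891 counts across control replicates, 63343, 54973 and 65506 across HD-het replicates, and 77984, 84171 and 75475 across HD-homo replicates. The shift was larger in HD-het cells by the test between the HD lines at 12 of the 16 shared members, and 5 of the list were shared lower with both HD lines as 1 group. Bag3, a co-chaperone that hands clients of HSP70 to autophagy, and Hspa2 rose. Bag3 had log2 fold changes of 0.49 in HD-het and 0.40 in HD-homo cells, and its libraries measured 55.9, 54.3 and 58.9 CPM in control, 85, 77.1 and 75.6 in HD-het and 69.1, 74.9 and 78.9 in HD-homo cells.

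Ribosomal protein genes fell in the average, but few were shared shifts. Of 79 tested cytosolic ribosomal protein genes, 57 were called lower and 0 higher in the average, with a median of -0.23, and 14 (17.7%) were shared lower, against 14.7% of all tested genes. By line, the median was -0.49 in HD-het and 0.04 in HD-homo cells. Rps29 had log2 fold changes of -0.58 in HD-het and -0.56 in HD-homo cells, and its HD lines differed by 0.02 (SE 0.116, edgeR adjusted p = 0.86). Without HD-homo replicate 1 the shared count was 25, and after centring on the median of each chromosome it was 6. Ribosomal protein genes have many processed copies, so counts of single members are uncertain. In glycolysis, 7 of 19 tested genes were shared lower, Eno1, Gapdh, Gpi1, Hk1, Ldha, Pgam1 and Pkm, and 2 were higher, Pfkfb3 and Ldhb. Ldhb, the lactate dehydrogenase subunit of oxidative tissues, rose from 1.54 CPM in control to 10.2 in HD-het and 12.5 in HD-homo cells, while Ldha, the other main subunit, had log2 fold changes of -0.55 and -0.28. Shared lower shares were 25% of 52 respiratory chain genes, 25% of 36 DNA replication genes and 25.8% of 31 proteasome subunits. Their averaged medians were -0.07, -0.17 and -0.12. By line, these medians were -0.12, -0.42 and -0.23 in HD-het cells, and -0.0034, 0.0066 and 0.067 in HD-homo cells.

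Neuronal genes shifted unevenly. Of 29 tested genes of the neuronal cytoskeleton and synapse, 9 (31%) were shared lower and 4 (13.8%) shared higher. The median was -0.42 in the average, but 0.19 in HD-het and -1.03 in HD-homo cells, and 7 members had the lines on opposite sides of control. The lower members were Bex1, Dlg4, Dpysl5, Elavl2, Gap43, Map1b, Nefm, Nrxn2 and Stmn2. Nefm, the medium neurofilament chain, had 81, 99 and 115 counts across control replicates, 0, 1 and 1 across HD-het replicates, and 0, 2 and 11 across HD-homo replicates. Gap43, a growth cone protein, had 94, 81 and 121 counts across control replicates, 6, 11 and 19 across HD-het replicates, and 9, 19 and 11 across HD-homo replicates. Its log2 fold changes were -3.13 and -3.12, and those of Nrxn2, a presynaptic adhesion protein, -3.10 and -3.12. Bex1 was a little lower in HD-het cells and had no count in HD-homo cells, with 281, 285 and 290 counts across control replicates, 224, 226 and 171 across HD-het replicates, and 0, 0 and 0 across HD-homo replicates. The higher members included Homer1, Map1a and Syn2. Map1a, a microtubule-associated protein of mature neurons, rose by 0.74 in HD-het and 0.93 in HD-homo cells on the log2 scale, while its relative Map1b, prominent in growing axons, had -1.70 and -3.19. Of 20 tested members of the list of huntingtin and its partners, 5 were shared lower (25%, against 14.7% of all tested genes), Htt among them, and 2 shared higher, with a median of 0.014. Hap1, the huntingtin-associated protein, had log2 fold changes of -1.53 and -0.86, and Itpr1, the calcium channel of the endoplasmic reticulum, -1.49 and -0.60.

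Interferon-stimulated genes rose, with the highest median of the lists described. Type I interferon acts through a complex that holds STAT2 and IRF9 and binds the interferon-stimulated response element (ISRE) in front of antiviral genes. Of 43 tested members, 31 were called higher and 2 lower, and 23 (53.5%, against 16.1% of all tested genes) were shared higher, with 0 shared lower. The median averaged log2 fold change was 1.84, from 0.77 in HD-het and 2.96 in HD-homo cells. The shared members included Ddx58, Gbp2, Herc6, Ifi27, Ifi35, Ifi44, Ifih1, Ifit1, Ifit3, Igtp, Irf7, Irf9, Isg15, Mx2, Oas3, Oasl2, Parp9, Stat2, Tap1, Usp18, Xaf1 and Zbp1. At 21 of them the rise was larger in HD-homo cells by the test between the HD lines, and at 0 in HD-het cells. Ifi27 measured 0.591, 0.416 and 0.541 CPM across control replicates, 23.7, 21.8 and 30.4 across HD-het replicates, and 25.2, 27 and 71.6 across HD-homo replicates. For Ifi27 the lines overlapped except for HD-homo replicate 3, and HD-homo minus HD-het was 0.70 (SE 0.328, edgeR adjusted p = 0.074). Ifi44 measured 0.0622, 0.0595 and 0.0338 CPM across control replicates, 1.61, 2.01 and 1.77 across HD-het replicates, and 5.36, 2.6 and 14 across HD-homo replicates. Every control library of Ifi44 had at most 2 counts, so it was in HD-het cells at least 17.7-fold and in HD-homo cells at least 72.4-fold higher. The shared count was 13 with both HD lines as 1 group.

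Letters of the ISRE were looked for in the RefSeq promoters (250 bases before to 50 after the start site, GRCm38.p6). The core GAAANNGAAA, searched on both strands, was present in 9 of the 17 shared members with a promoter in the table (52.9%), of 23 shared members in all, against 3.99% of all genes and 3.6% of tested genes with a promoter. Over all tested list members it was 17 of the 34 with a promoter (50%), so the shared members did not stand out from their list. Since 17 of 23 is under 80%, the share describes these 17 only, and a match is not evidence of binding. Examples from 6 members follow, 5′ to 3′ on the strand of the gene, with the match in capitals. A match on the opposite strand reads TTTCNNTTTC. Only 1 match is marked in each stretch, and the Isg15 stretch holds another that overlaps the marked one.
Ifit1 (chr19:34640775-34640804, + strand): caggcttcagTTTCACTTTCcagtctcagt
Ifit3 (chr19:34583363-34583392, + strand): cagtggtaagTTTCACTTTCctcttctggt
Gbp2 (chr3:142620594-142620623, + strand): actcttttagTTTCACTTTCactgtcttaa
Isg15 (chr4:156200877-156200906, - strand): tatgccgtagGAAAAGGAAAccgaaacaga
Oas3 (chr5:120777715-120777744, - strand): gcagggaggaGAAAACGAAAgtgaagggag
Igtp (chr11:58199512-58199541, + strand): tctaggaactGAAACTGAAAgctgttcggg
Ifit1 and Ifit3, which encode proteins that bind viral RNA, carry the same match in the same direction, as does Gbp2. Ifit1 had 4, 3 and 0 counts across control replicates, 8, 7 and 13 across HD-het replicates, and 513, 956 and 761 across HD-homo replicates, and the guanylate-binding protein gene Gbp2 had 3, 2 and 1 counts across control replicates, 29, 24 and 17 across HD-het replicates, and 88, 124 and 103 across HD-homo replicates. Isg15, the ubiquitin-like modifier, had 16, 13 and 12 counts across control replicates, 29, 35 and 35 across HD-het replicates, and 329, 375 and 451 across HD-homo replicates. All 3 had higher counts in each HD library than in each control library, and the step from HD-het to HD-homo was the larger one for Ifit1 and Isg15.

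Genes of antigen presentation rose as well. MHC class I molecules carry peptides, cut by the proteasome and pumped by TAP1 and TAP2, to the cell surface. Of 20 tested genes, 12 (60%) were shared higher and 0 lower, with a median of 0.84, and the higher members were B2m, Erap1, H2-D1, H2-K1, H2-Q4, H2-T22, Nlrc5, Pdia3, Psme2, Tap1, Tap2 and Tapbp. Tap2 measured 1.31, 1.52 and 1.62 CPM across control replicates, 8.63, 8.99 and 7.73 across HD-het replicates, and 3.92, 5.42 and 6.92 across HD-homo replicates. Nlrc5 had 0.964, 0.773 and 0.744 CPM across control replicates, 2.09, 1.77 and 2.22 across HD-het replicates, and 4.48, 5.82 and 11.5 across HD-homo replicates. Nlrc5, the transactivator of class I genes, rose further in HD-homo cells, by 1.84 (SE 0.306, edgeR adjusted p = 0.00022), whereas Tap2 rose further in HD-het cells, with HD-homo minus HD-het at -0.64 (SE 0.175, edgeR adjusted p = 0.0065). B2m, the invariant class I chain, rose from a mean of 136 CPM in control to 262 in HD-het and 329 in HD-homo cells. The class I genes H2-K1, H2-D1, H2-Q4 and H2-T22 resemble each other, so reads may be counted on more than 1 of them. Tap1 is in the interferon list as well, and 5 members were shared higher with both HD lines as 1 group. Among 27 tested chemokines and cytokines, 6 (22.2%, against 16.1% of all tested genes) were shared higher, Csf1, Csf3, Cxcl10, Il6, Lif and Tslp. Ccl25 was the shared lower member. The shared higher count was 3 with both HD lines as 1 group, and 2 with at least 10 counts in every library. Lif measured 18.9, 20.1 and 16.2 CPM across control replicates, 103, 88.2 and 53.1 across HD-het replicates, and 138, 277 and 150.2 across HD-homo replicates. Lif is a cytokine of the interleukin-6 family, and all 6 HD libraries were above control. Il6 stayed low, with 3, 3 and 3 counts across control replicates, 31, 34 and 28 across HD-het replicates, and 5, 20 and 22 across HD-homo replicates. At 10 of the 27 members the HD lines lay on opposite sides of the control range.

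Lysosomal genes rose in the average, with a median near 0 in HD-homo cells. Lysosomes digest proteins, lipids and sugars, and many of their genes carry the CLEAR element bound by TFEB and TFE3. Of 38 tested genes, 29 were called higher and 0 lower, and 14 (36.8%) were shared higher, while 8 had the lines on opposite sides of control. The median was 0.48 in the average, 0.74 in HD-het and 0.08 in HD-homo cells. The shared members included Cln3, Ctsa, Ctsb, Ctsl, Gaa, Galns, Gla, Gusb, Lipa, Man2b1, Manba, Npc2 and Sgsh. Manba measured 3.76, 4.07 and 4.6 CPM across control replicates, 16.7, 15.7 and 17 across HD-het replicates, and 13.4, 15.6 and 12.7 across HD-homo replicates. Manba, the lysosomal beta-mannosidase, was 3.97-fold higher in HD-het and 3.35-fold higher in HD-homo cells. Cln3, the membrane protein lost in juvenile Batten disease, had log2 fold changes of 1.22 in HD-het and 1.07 in HD-homo cells, and Gusb, the beta-glucuronidase, 1.07 and 1.01. In promoters, TCACGTGA, which reads alike on both strands, was present in 3 of 11 shared members with a promoter in the table (27.3%), of 14 in all, and in 1.12% of all genes and 2.09% of tested genes with a promoter. Over all tested list members it was 7 of 28 (25%), and with 11 of 14 under 80% the share describes these 11 only. These 3 matches are printed with the motif in capitals.
Cln3 (chr7:126583340-126583369, - strand): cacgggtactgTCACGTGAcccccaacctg
Ctsa (chr2:164833749-164833778, + strand): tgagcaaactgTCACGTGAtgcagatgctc
Gla (chrX:134601215-134601244, - strand): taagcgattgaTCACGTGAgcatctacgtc
A core sterol response element, TCACNCCAC on either strand, was present in 0 of the 9 shared cholesterol genes with a promoter in the table, of 14 in all. It was present in 1.44% of all genes and 1.31% of tested genes with a promoter. Over all tested list members it was 1 of 17 (5.88%). With 9 of 14 under 80% the share describes these 9 only, and at so low a background 9 promoters are too few to show an absence. Of 37 autophagy core genes, 13 (35.1%) were shared higher and 5 (13.5%) lower, with a median of 0.16. Optn measured 15.1, 13.1 and 13.8 CPM across control replicates, 34.1, 33.8 and 31.8 across HD-het replicates, and 28.4, 35.4 and 42.4 across HD-homo replicates. Optn, the autophagy receptor optineurin, rose in both HD lines, which differed by 0.09 (SE 0.121, edgeR adjusted p = 0.52). Atg10, an E2-like enzyme of ATG12 conjugation, had log2 fold changes of 1.63 in HD-het and 1.04 in HD-homo cells, and Atg101, part of the initiating kinase complex, -0.66 in HD-het and -0.34 in HD-homo cells.

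Targets of ATF4, the factor of the integrated stress response, were called higher in the average at 20 of 31 tested genes and lower at 6. Of these, 11 (35.5% of the list) were shared higher and 1 shared lower, and 3 members had the lines on opposite sides of control. The median was 0.25 in the average, 0.45 in HD-het and 0.10 in HD-homo cells. The higher members were Aars, Asns, Atf3, Atf5, Ddit3, Fgf21, Gars, Psph, Pycr1, Slc7a11 and Trib3, which include amino acid synthesis enzymes, tRNA synthetases and stress factors. Pycr1 measured 8.15, 8.33 and 7.2 CPM across control replicates, 21, 20.4 and 17.3 across HD-het replicates, and 19.5, 18.4 and 19 across HD-homo replicates. Pycr1, which makes proline, was 2.48-fold and 2.4-fold higher, and the HD lines differed by -0.04 (SE 0.0905, edgeR adjusted p = 0.68). Trib3, a pseudokinase induced by stress, had log2 fold changes of 2.80 and 1.06, and Ddit3, the factor CHOP, 1.47 and 0.49. Ddit4, a repressor of mTORC1 that stress also induces, was the lower member, with log2 fold changes of -0.89 in HD-het and -0.94 in HD-homo cells. In the NRF2 antioxidant list, 7 of 30 were higher and 5 lower, 23.3% and 16.7%, against 16.1% and 14.7% of all tested genes. Hmox1 measured 69.7, 68.8 and 59 CPM across control replicates, 246, 239 and 146 across HD-het replicates, and 154, 177 and 285 across HD-homo replicates. Hmox1, the heme oxygenase, and Mgst1, a membrane glutathione transferase, rose in both lines, and HD-homo minus HD-het was -0.03 (SE 0.227, edgeR adjusted p = 0.9) and 0.08 (SE 0.127, edgeR adjusted p = 0.59). The lower members included both subunits of glutamate-cysteine ligase, Gclc and Gclm, and both ferritin chains, Fth1 and Ftl1. Gclm measured 84.7, 85 and 90.1 CPM in the control, 68.3, 69 and 70.6 in the HD-het and 69.7, 68.2 and 77.1 in the HD-homo libraries.

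**Figure D3:**
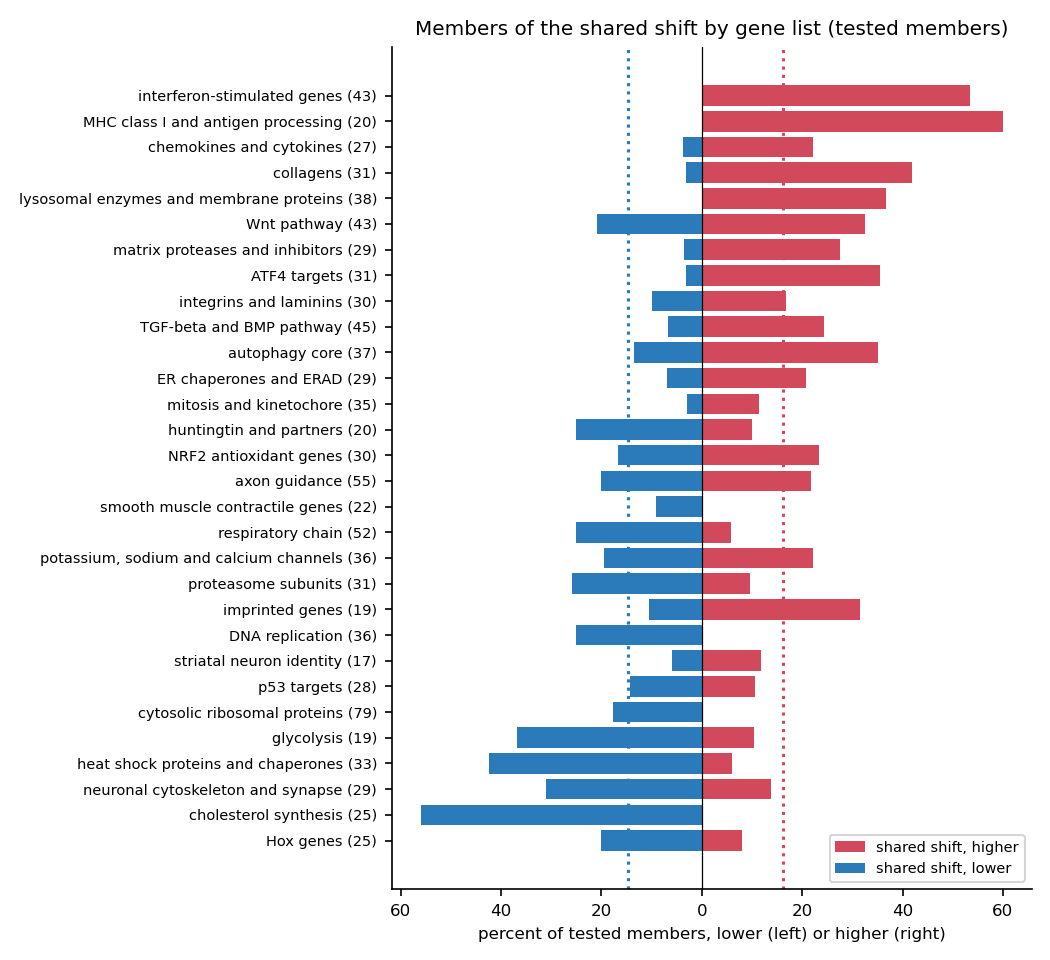
For each of the 30 pathway lists, ordered by its median log2 fold change, the bars give the percent of tested members that were shared higher (right) or shared lower (left), with the number of tested members in brackets. The dotted lines mark 16.1% higher and 14.7% lower among all tested genes, and MHC class I (60% higher) and cholesterol synthesis (56% lower) reach furthest among these lists.

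Many collagen genes rose in both lines. Of 31 tested collagens, 13 (41.9%) were shared higher and 1 was lower, with a median of 0.60, and 6 had the lines on opposite sides of control. All chains of the common collagen VI trimer were among the higher members. Col6a3 measured 52.7, 50.5 and 26.8 CPM across control replicates, 334, 331 and 268 across HD-het replicates, and 511, 390.2 and 558 across HD-homo replicates. The log2 fold changes of Col6a1 were 1.17 and 3.80, those of Col6a2 2.07 and 4.53 and those of Col6a3 2.84 and 3.49, so that each rose further in HD-homo cells. Col18a1 measured 523, 502 and 509.6 CPM across control replicates, 131, 125 and 75.1 across HD-het replicates, and 81.2, 89.6 and 73.5 across HD-homo replicates. Col18a1, a basement membrane collagen, was the shared lower member, 4.63-fold and 6.28-fold lower. Of 30 tested integrins and laminins, 5 (16.7%) were shared higher and 3 (10%) lower, against 16.1% and 14.7% of all tested genes, 8 had the lines on opposite sides of control, and the medians were 0.73 in HD-het and -0.54 in HD-homo cells. Lama4, a laminin chain of vessel and muscle basement membranes, was under the floor in control cells and at 5.75, 5.21 and 11.1 CPM in HD-het and 34.4, 31.6 and 69 in HD-homo libraries, at least 72.4-fold and at least 444-fold higher. Itga2, a collagen-binding integrin with at most 4 counts in a control library, rose to 0.79, 0.427 and 0.719 CPM in HD-het and 19.8, 6.8 and 24.3 in HD-homo libraries, and the integrins Itgb4 and Itgb2 fell, with log2 fold changes of -1.12 in HD-het and -3.25 in HD-homo cells for Itgb4. Among matrix proteases and inhibitors, 8 of 29 (27.6%) were shared higher and 1 lower, which became 3 and 0 with both HD lines as 1 group. Mmp2, gelatinase A, rose from a mean of 15.4 to 34 and 153 CPM, and Serpine2, a protease inhibitor of glial origin, from 2.12 to 103 and 5.5. The markers of fibroblasts and meninges were expressed in all lines, with a summed level of 12493 to 14079 CPM in control, 21673 to 23068 in HD-het and 16477 to 17860 in HD-homo libraries, and 4 of 12 tested were shared higher, 1 shared lower and 3 opposite, with medians of -0.25 in HD-het and 0.53 in HD-homo cells. Their part in the matrix genes was not tested.

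Signalling pathways moved member by member. In the Wnt pathway, 14 of 43 tested genes (32.6%) were shared higher and 9 (20.9%) lower, and the ligands divided. Wnt10b measured 0, 0.0297 and 0 CPM across control replicates, 3.75, 3.26 and 3.44 across HD-het replicates, and 36.2, 48.3 and 30.2 across HD-homo replicates. Wnt7b measured 15.9, 16 and 19.9 CPM across control replicates, 0.62, 1.04 and 0.569 across HD-het replicates, and 4.29, 2.84 and 3.61 across HD-homo replicates. Wnt10b, with at most 1 count in a control library, was in HD-het cells at least 34.4-fold and in HD-homo cells at least 377-fold higher, and Wnt1, Wnt2, Wnt2b and Wnt11 rose as well. Wnt7a and Wnt7b, ligands made by neural progenitors and neurons, fell. Axin2, a feedback target of beta-catenin, had log2 fold changes of 1.79 and 2.18, while the receptors Fzd2, Fzd3, Fzd5 and Fzd6 fell and Fzd8 rose. Among 45 tested genes of TGF-beta and BMP signalling, 11 were shared higher (24.4%) and 3 lower (6.67%). The higher genes included the latent TGF-beta binding proteins Ltbp1 and Ltbp2 and the inhibitory Smad6, and the lower ones were the ligands Bmp6 and Gdf11 and the receptor Acvr1b. Gdf11 measured 26.9, 27 and 31.1 CPM in control, 16.7, 14 and 16.6 in HD-het and 15.1, 16.8 and 13.4 in HD-homo libraries, and the HD lines differed by -0.06 (SE 0.107, edgeR adjusted p = 0.63).

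Axon guidance genes were shared higher at 12 and shared lower at 11 of 55 tested members (21.8% and 20%, against 16.1% and 14.7% of all tested genes), with a median of -0.01. With both HD lines as 1 group these counts were 7 and 4. Robo1 measured 0, 0.0297 and 0 CPM across control replicates, 6.68, 6.68 and 5.36 across HD-het replicates, and 3.83, 7.06 and 2.95 across HD-homo replicates. Robo1, the Slit receptor, had at most 1 count in a control library and was at least 61.5-fold and at least 45.5-fold higher, and the HD lines differed by -0.42 (SE 0.267, edgeR adjusted p = 0.18). Robo2 and the netrin receptor Unc5c rose as well. Robo2 had log2 fold changes of 2.28 and 0.91, and Unc5c rose from at most 7 counts in a control library to means of 1.54 and 32.5 CPM. Sema4d had 15.2, 13 and 13.9 CPM across control replicates, 4.29, 4.3 and 3.35 across HD-het replicates, and 4.23, 4.64 and 4.56 across HD-homo replicates. Sema4d, a membrane semaphorin, was 3.52-fold and 3.13-fold lower, and Nrp2, a semaphorin receptor, 1.52-fold and 3.98-fold. The ephrins divided by member, with Efna2 and Efnb1 higher and Efna1, Efna3 and Efna4 lower.

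Many genes moved in opposite directions in the HD lines. For 2504 genes (18.5%) all libraries of 1 HD line lay above the control range and all of the other below it, 1383 with HD-het up and 1121 with HD-homo up, and 1616 of them were not called in the average. Col1a2 measured 71.9, 68.1 and 80.2 CPM across control replicates, 3.21, 3.54 and 2.7 across HD-het replicates, and 1556, 1411 and 1516 across HD-homo replicates. Col1a2, a chain of the main fibrillar collagen, was 23.3-fold lower in HD-het and 20.4-fold higher in HD-homo cells, and the averaged log2 fold change was -0.10 (SE 0.0775). Ptgis, the prostacyclin synthase, and Adm, the peptide hormone adrenomedullin, had the same order. They were at least 33-fold and at least 9.3-fold lower in HD-het cells, where no library had over 2 counts, and 21.7-fold and 18-fold higher in HD-homo cells. Prl2c2 did too, but it has near-identical paralogs and its counts are uncertain. Pex5l had 0.156, 0.208 and 0.0676 CPM across control replicates, 26, 25.1 and 20.7 across HD-het replicates, and 0, 0 and 0 across HD-homo replicates. Pex5l, a regulator of HCN channels, was 166-fold higher in HD-het cells and had no count in HD-homo cells. Slc8a1, the sodium-calcium exchanger, was 16.3-fold higher in HD-het and at least 14.1-fold lower in HD-homo cells. Hox genes, the factors of position along the body axis, differed most between the lines among the lists described, by their medians. Of 25 tested, 13 were opposite, 5 were shared lower and 2 shared higher, and the medians were -3.79 in HD-het and 0.65 in HD-homo cells. The shared lower members were Hoxa9, Hoxb13, Hoxb8, Hoxc4 and Hoxc8, and Hoxb8 measured 21.7, 20.8 and 23.6 CPM across control replicates, 1.13, 1.19 and 2.01 across HD-het replicates, and 12.3, 13.6 and 10.6 across HD-homo replicates.

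Genes beside Htt were looked at after their values were seen, since the lines differ there by design. Within 500 kb of its start on chromosome 5, 12 genes were tested, Htt among them, and 4 were shared higher (Add1, Fam193a, Lrpap1 and Mfsd10) and 2 shared lower (Htt and Dok7), beside 16.1% higher and 14.7% lower among all tested genes. With both HD lines as 1 group, edgeR adjusted p was 0.053 for Fam193a and 0.17 for Dok7, so that these calls were lost. Mfsd10 measured 0.778, 0.446 and 0.609 CPM across control replicates, 26.2, 23 and 26.6 across HD-het replicates, and 78.3, 77.2 and 77 across HD-homo replicates. Mfsd10 lies 128 kb before the start of Htt, from 34633644 to 34637215 on GRCm38, and was 41.4-fold higher in HD-het and 127-fold higher in HD-homo cells. Its HD-homo level was above its HD-het level by 1.62 (SE 0.0858, edgeR adjusted p = 2.4e-08). Dok7 measured 15.2, 12.6 and 14.4 CPM across control replicates, 8.91, 7.8 and 8.48 across HD-het replicates, and 1.44, 1.35 and 1.13 across HD-homo replicates. Dok7, an activator of the muscle kinase MuSK, lies 295 kb after the start of Htt and was 1.68-fold and 10.8-fold lower. Add1, an adducin of the membrane skeleton, rose by 0.58 in HD-het and 0.27 in HD-homo cells on the log2 scale, and Lrpap1, a chaperone of the endoplasmic reticulum, by 0.87 in HD-het and 0.30 in HD-homo cells. Rgs12 was 2.29-fold higher in HD-het cells, against -0.03 on the log2 scale in HD-homo cells, with overlapping ranges.

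**Figure D4:**
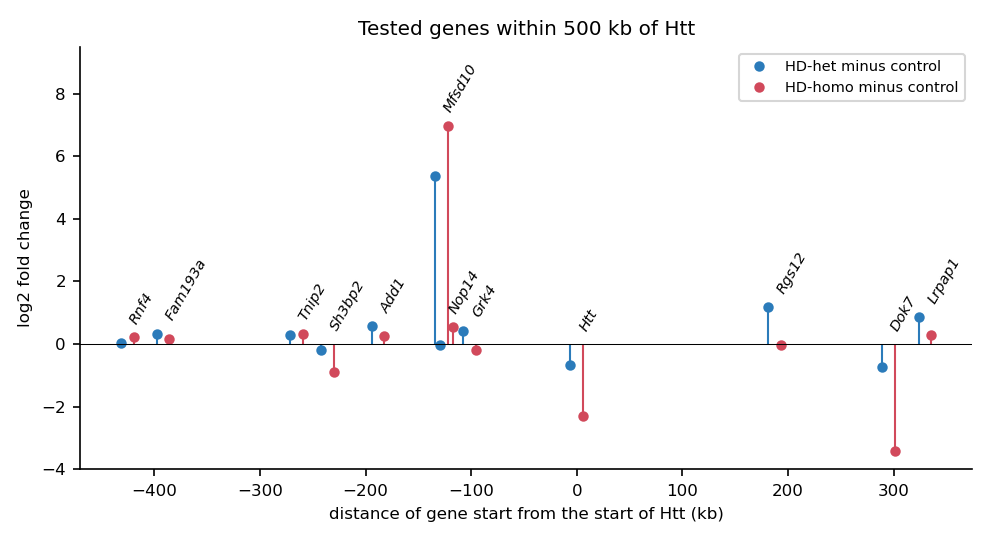
Log2 fold changes against control cells of the 12 tested genes within 500 kb of the start of Htt, in HD-het and HD-homo cells, by the distance of their first base. The log2 fold changes of Mfsd10 are 5.37 and 6.98, Htt and Dok7 fall in both lines, and the other genes stay within 1.19 of control.

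The medians of some chromosomes moved as well. The median log2 deviation from control was taken over the genes of each chromosome with a mean of at least 5 CPM, in each library. Control libraries stayed within 0.0328 of the control mean. All 6 HD libraries lay above the control libraries for chromosomes 2, 6 and 9 and below them for chromosomes 3, 10, 17 and 19, and they overlapped or divided by line for the other 13 of 20. On chromosome 2 the median over 828 genes was 0.20 in HD-het and 0.20 in HD-homo cells, and 32.3% of its tested genes were shared higher and 4.27% shared lower, against 16.1% and 14.7% of all tested genes. On chromosome 17 it was -0.16 in HD-het and -0.24 in HD-homo cells, with 30.6% shared lower, and on chromosome 19 -0.36 in HD-het and -0.11 in HD-homo cells, with 29.7% shared lower. The medians of 8 equal groups of genes along chromosome 2 ran from 0.18 to 0.28 in HD-het and from 0.16 to 0.30 in HD-homo cells, so the shift covered its length. This did not hold for the other raised chromosomes, where the lowest group was at -0.02 in HD-het and -0.10 in HD-homo cells for chromosome 6 and at 0.08 and -0.15 for chromosome 9. On the lowered chromosomes 3, 10, 17 and 19 even the highest group was under 0 in both lines. It was at -0.099 in HD-het and -0.16 in HD-homo cells for chromosome 17, and at -0.24 and -0.00078 for chromosome 19. Chromosome 15 fell in HD-het cells, with medians of -0.61 in HD-het and 0.02 in HD-homo cells, and its groups ran from -0.67 to -0.53 in HD-het cells. DNA copy number was not measured in these libraries and its part was not tested. After each gene was centred on the median of its chromosome in each library, an alternative chosen after seeing the data, 3840 genes were shared shifts, of which 3126 were among the 4165. The shares for chromosome 2 were then 15.5% higher and 12% lower. Cholesterol genes then had 14 shared lower members, interferon-stimulated genes 21 shared higher and chaperones 13 shared lower.

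**Figure D5:**
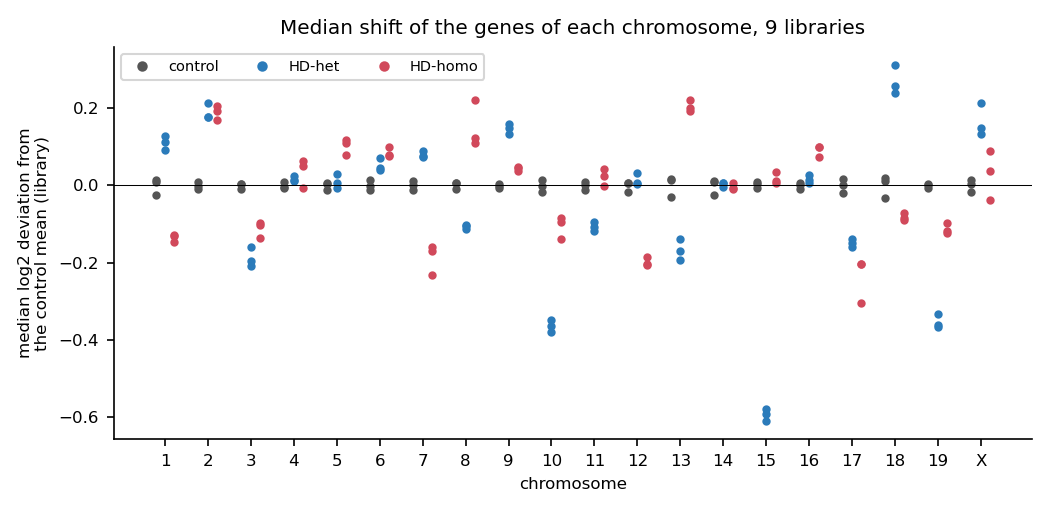
The median log2 deviation from the control mean over the genes of each chromosome, with 1 point for each of the 9 libraries. The control libraries sit within 0.0328 of 0, chromosome 2 is raised and chromosomes 3, 10, 17 and 19 are lowered in both HD lines, and chromosome 15 is lowered in the HD-het libraries.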

How the data were processed

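Total RNA of 9 striatal cell libraries was poly(A)-selected and made into strand-specific libraries by the authors. The deposited values are raw whole-number counts per gene symbol. The submitters' processing notes name cutadapt, Bowtie 1.1.2, RSEM 1.3.0, DESeq2 and the builds GRCm38.p5 and mm10, with no role or order. If RSEM made the counts, they are rounded estimates, which share reads between similar genes. Of 36410 listed genes, 26 carry a date where the symbol should stand. The tests used edgeR 4.0.16 in R 4.3.3 (filterByExpr with a minimum count of 10, TMM, 1 mean per line, quasi-likelihood test, Benjamini-Hochberg adjustment over 13508 genes), and the pipeline was tested on simulated data. The members and the 38 gene lists were chosen with earlier results of these data known.

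Genes were named by rule, and some of those it takes are not reported here. It takes the 12 shared higher and 12 shared lower genes of at least 10 CPM with the largest smaller shift of the HD lines, 4 opposite genes in each direction, up to 2 members of a list in each direction of at least 1 CPM, Htt and the Y-linked genes. Other list members given with values, and the neighbours of Htt, were chosen after their values were seen. Folds are ratios of mean normalized CPM. A line with no more than 3 counts in any library was set to 3 counts per library, which makes the fold a lower bound. Positions and promoters come from RefSeq on GRCm38.p6, matched by symbol or synonym (positions for 99% and promoters for 10530 of 13508 tested genes), and exons from GENCODE M21. Alternatives were DESeq2 1.42.0, other size factors and filters, a replicate block, thinning, HD lines as 1 group, and leaving out each library.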

Additional observations from a re-analysis of the deposited data

Results flagged for a closer look

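Of 99 genes named by rule or by their place near Htt, 67 differed between the HD lines under the same contrast, by edgeR's quasi-likelihood test of HD-homo minus HD-het with Benjamini-Hochberg adjustment over all tested genes. The background is high, since 71.6% of all tested genes differed. Values are log2 differences of HD-homo minus HD-het, and a positive value means a higher level in HD-homo cells.

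Among shared higher genes, those further from control in HD-homo cells were Ltbr 2.29, Mpg 1.42, Aebp1 1.97, Cmtm7 2.27, Mme 1.96, Mfsd10 1.62, Medag 3.07, Ifi44 2.02, Nlrc5 1.84, Lif 1.21, Col6a3 0.65, Lama4 2.61, Itga2 4.70, Wnt10b 3.45, Wnt2 1.5, Ltbp2 2.79 and Sema3d 3.03. Those further from control in HD-het cells were Bgn -0.55, Hspa2 -0.51, Tap2 -0.64, Atg10 -0.59, Manba -0.24, Col8a2 -0.69, Mmp19 -1.13, Adamts16 -6.99 and Gdf5 -2.54. The HD-homo change alone did not pass for Adamts16, with 4, 5 and 8 counts against at most 2 in a control library, or for Hspa2 (edgeR adjusted p = 0.12 and 0.051), and both lost the averaged call with the HD lines as 1 group (0.068 and 0.07). Among the lower genes, Ptprb -3.55, Cd200 -2.97, Elavl2 -3.17, Cdx2 -4.59, Artn -0.89, Ston2 -1.03, Mid1 -0.94, Htt -1.62, Cryab -0.45, Col18a1 -0.44, Itgb4 -2.12, Itgb2 -1.12, Adamts7 -1.0 and Nrp2 -1.39 fell further in HD-homo cells, while Pax2 4.64, Rps12 0.74, Hspa1a 0.86, Ccl25 0.78, Atg101 0.32, Atg2a 0.30, Txn1 0.77, Wnt7b 2.26 and Hoxb8 3.08 fell further in HD-het cells. The opposite genes were chosen for this difference, so that its test adds nothing, and where a line is near 0 counts the fitted size is not a bound. Their values were Prl2c2 9.62, Ptgis 10.6, Col1a2 8.89, Adm 10.1, Pex5l -12.7, Spats2l -9.96, Adamtsl1 -8.87 and Slc8a1 -9.40. Near Htt the values were Add1 -0.31, Dok7 -2.68, Grk4 -0.61, Lrpap1 -0.57, Nop14 0.58, Rgs12 -1.23, Rnf4 0.19 and Sh3bp2 -0.71. The Y-linked genes had Eif2s3y 0.36 and Uty -0.60. Groups of 3 libraries were too small for the search for single libraries that stand apart.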

How the results depend on the processing

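Treating both HD lines as 1 group of 6 libraries gave 2398 called genes against 7986, 2385 shared shifts against 4165, and 1253 shared shifts that differed between the HD lines against 2526, and the Htt value was -1.28 with an adjusted p of 0.084. It left 8 shared lower cholesterol genes of 14, 5 chaperones of 14, 4 ribosomal protein genes of 14, 7 ATF4 targets of 11, 5 antigen presentation genes of 12 and 13 interferon-stimulated genes of 23. Requiring a log2 fold change of at least 1 as well gave 2020 called, 1320 shared and 989 differing genes, and raised the share of higher genes among the called from 48.3% to 61%. It left 5 cholesterol genes, 2 lower chaperones, 3 lysosomal genes and 0 ribosomal protein genes, so these shifts were mostly under 1 log2 unit in the average. With at least 10 counts in every library, 457 genes shifted by at least 1 log2 unit in both lines, against 901, since genes near 0 in a line are then not tested, and 10 interferon-stimulated genes and 3 lower neuronal genes were left. DESeq2's test and size factors, library totals, no filter, thinning and an adjusted p under 0.01 moved none of the 6 main results past 1.5 times or across the threshold. Without 1 library at a time, 6784 to 8117 genes were called, 4168 to 4485 shared, 924 to 955 shifted by 1 log2 unit in both lines, 2304 to 2760 differed between the lines and 2602 to 3073 were opposite, and Htt was -1.54 to -1.47. Fewer libraries make the condition on ranges easier to meet. The 5 shared lower autophagy genes were 3 without control replicate 1 or control replicate 3, and the 3 shared higher respiratory chain genes were 8 without control replicate 3. Centring on each chromosome, chosen after seeing the data, gave 7484, 3840, 918, 2221 and 2414, and Htt -1.55.

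Same-numbered libraries of the lines correlated over 0.1 in 4 of 9 pairs (0.0226 to 0.245), and 8 of 9 libraries were closest to their own number. The libraries thus shared some structure by number. The main fit did not use the numbers, so this structure stayed in its spread. A fit with the replicate number as block called 8441 genes, with 4185 shared, 899 shifted by 1 log2 unit, 2614 differed and Htt was -1.49. Shared genes with no more than 3 counts in any control library (124 higher) or in any library of both HD lines (10 lower) have only lower bounds at this depth. No named gene changed direction under any alternative run, and 50 of the alternatives' values for single named genes no longer passed.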

Other observations

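Of 19 tested imprinted genes, expressed from 1 parental allele, 6 (31.6%) were shared higher and 2 (10.5%) shared lower. Among all tested genes these shares were 16.1% and 14.7%. In 9 of the 19 the HD lines lay on opposite sides of control, beside 18.5% of all tested genes. Mest had 127, 111 and 129 counts across control replicates, 504, 519 and 385 across HD-het replicates, and 1479, 2271 and 1238 across HD-homo replicates. Igf2, a fetal growth factor, had 59, 59 and 43 counts across control replicates, 11, 16 and 12 across HD-het replicates, and 12, 24 and 37 across HD-homo replicates. Dlk1, a membrane ligand of fetal and fat precursor cells, was near absent from control and HD-homo cells, with 1, 2 and 0 counts across control replicates, 47, 56 and 37 across HD-het replicates, and 3, 5 and 4 across HD-homo replicates. Sox2, a factor of neural progenitors, had 3907, 4092 and 4173 counts across control replicates, 3022, 2770 and 2642 across HD-het replicates, and 189, 239 and 167 across HD-homo replicates, with log2 fold changes of -0.63 and -4.54, and Sox1, at a lower level, had log2 fold changes of -0.68 and -3.15.

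Ion channel genes divided, with 8 shared higher and 7 shared lower of 36 tested, and p53 targets had 3 higher and 4 lower of 28. In percent these were 22.2 and 19.4 for channels and 10.7 and 14.3 for p53 targets, beside 16.1 higher and 14.7 lower among all tested genes. Smooth muscle contractile genes were the list with the most members of opposite direction, 15 of 22, beside 18.5% of all tested genes. The Y-linked helicase gene Ddx3y was expressed in all 9 libraries and had no count of Xist beside it, and its log2 fold change was -0.27 in HD-het and -0.27 in HD-homo cells. Uty, also Y-linked, had -0.44 in HD-het and -1.04 in HD-homo cells. With both HD lines as 1 group neither averaged call passed (edgeR adjusted p = 0.072 for Ddx3y and 0.098 for Uty). Without control replicate 2, Ddx3y did not pass either (edgeR adjusted p = 0.084). The Y-linked gene Kdm5d overlapped the control range and was not called. Eif2s3y, another Y-linked gene, was shared lower, with log2 fold changes of -0.82 in HD-het and -0.47 in HD-homo cells. Its averaged value was -0.65 (edgeR adjusted p = 0.00033), and this call was kept with both HD lines as 1 group. Of 11 oligodendrocyte markers, 7 were tested, and these 7 were called higher in the average, beside 28.5% of all tested genes. Only 2 (28.6%) were shared higher, against 16.1% of all tested genes, and 1 with both HD lines as 1 group. Their summed level was 77.7 to 96.6 CPM in control, 177 to 218 in HD-het and 466 to 499 in HD-homo libraries. Mog had no count in any library and Olig2 at most 2.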
